A study of Mus musculus with 11 samples.

Results

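The genes described here are 49 mouse genes of DNA repair and of the signalling that DNA damage sets off. They were listed by name and function, with earlier results of these data known. They are 49 of the 55487 gene identifiers in the deposited table. Each symbol matched 1 identifier. By role they are 9 genes of damage signalling, 9 of break end sensing and homologous recombination, 5 of non-homologous end joining, 14 of single-strand break and base excision repair, 8 of nucleotide excision repair, and 4 of mismatch repair and the Fanconi anemia pathway. RNA was sequenced from fetal fibroblasts (MEF) and from spinal cord of C57BL/6 mice that were either heterozygous for Morc2a p.S87L or wild-type (WT). S87L is a serine to leucine change in MORC2A, an ATPase that compacts chromatin and is recruited by the HUSH complex to silence genes. Variants of the human gene cause axonal neuropathy. There were 2 libraries of S87L MEF and 3 of WT MEF, and 3 of S87L spinal cord and 3 of WT spinal cord. The sources used here do not give the age or sex of the animals, any pooling, or the passage of the fibroblasts. Nor do the labels tie each library to its own animal or culture, so every p-value measures the spread between libraries and may reflect technical repeats.

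A cell meets DNA damage with several machines. Breaks across both strands are detected by the MRE11, RAD50 and NBN complex, marked on histone H2AX by the kinase ATM, and then closed either by end joining or by recombination with a sister copy, which needs a replicated genome. Damaged bases and single-strand breaks are repaired by glycosylases, an endonuclease, a polymerase and a ligase, a route that cells outside the cell cycle depend on, and inherited defects in it (APTX, TDP1, XRCC1) cause neurological disease in humans.

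Levels are FPKM, fragments per kilobase of gene scaled by library size, meant to let genes of different length be set side by side. The values fit the joined length of all annotated exons of a gene, such as 23629 bases for Atr. Levels of different genes, and their ratios, therefore also depend on that annotated length. Depth, as reads recovered from the FPKM steps, was 12.1 to 23.5 M per library. Tests were made with limma on log2(FPKM + 0.5) over every gene whose mean reached 0.5 FPKM in the libraries compared. A call means a p under 0.05 after Benjamini-Hochberg adjustment over all those genes, and SE is limma's moderated standard error. Morc2a had 16.4 and 16.4 FPKM in S87L MEF against 18.3 to 18.8 in WT MEF, and 4.71 to 4.95 FPKM in S87L cord against 5.61 to 5.71 in WT cord. These values do not separate the alleles, so they do not check the genotype labels. The summed FPKM of 5 neuronal markers was 0.833 to 0.909 in WT MEF and 1314 to 1332 in WT cord, and that of 5 fibroblast markers was 3657 to 3673 in WT MEF and 12.4 to 13.6 in WT cord.

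WT MEF against WT spinal cord shows where the genes are used before any mutation enters. Most of them had more RNA in MEF, and the furthest apart were the Fanconi genes Fanca and Fancd2, 23.0-fold and 22.3-fold higher by ratio of means. Trp53bp1, Xrcc3 and Polb were lower in MEF, and so were 4 of the 5 end joining genes, 3 of which lost the call with quantile normalization. By limma 33 of the 49 genes were called higher and 12 lower in MEF. Over all 15962 genes tested 40.3% were called higher, 47.4% lower and 87.6% in either direction. The median difference of the 49 genes was 0.75 on the log2 scale, and that of all genes was -0.12. Quantile normalization gave 37 higher and 6 lower and moved the median of all genes to 0.15, above which the median of the 49 genes lay by 0.83, against 0.87 without it. The calls of 30 higher and 6 lower genes held under every alternative run. Tissue and everything that goes with preparing fibroblasts cannot be told apart, and in bulk RNA fewer cells of a type and less RNA per cell cannot be told apart either.

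**Figure D1:**
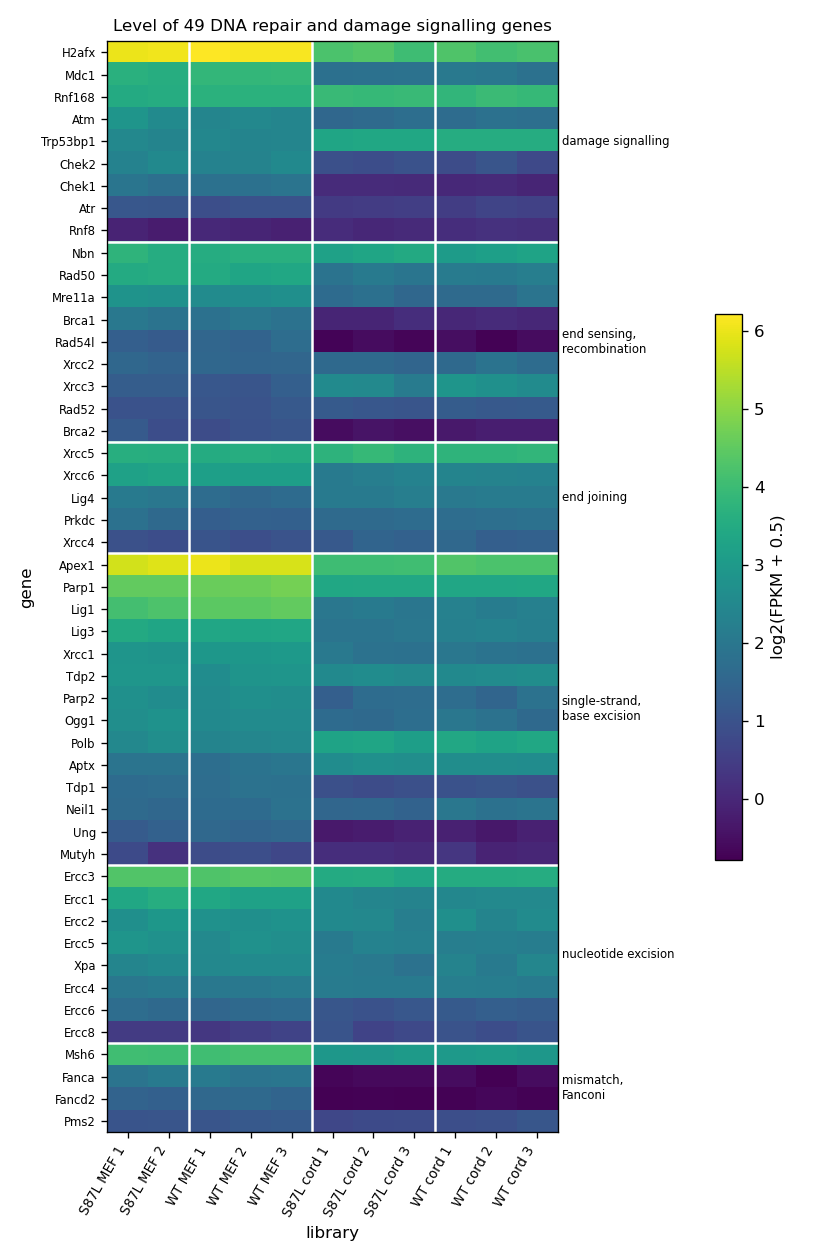
Level of each of the 49 genes in each of the 11 libraries as log2(FPKM + 0.5), on a colour scale, with the genes grouped by role (right) and ordered within a role by level, and the libraries grouped as S87L MEF, WT MEF, S87L cord and WT cord. H2afx and Apex1 are the brightest in MEF, at 71.7 and 58.1 FPKM in WT, and Fanca, Fancd2 and Rad54l are among the darkest in cord, under 0.2 FPKM on average in WT.

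In WT MEF the mean level of a gene ran between 0.454 and 71.7 FPKM with a median of 4.81, and in WT cord between 0.109 and 18.7 with a median of 3.27. The highest in WT MEF were H2afx, the histone variant phosphorylated at breaks, with 71.7 ± 1.79 FPKM, and Apex1, the endonuclease that cuts at sites without a base, with 58.1 ± 5.0 (SD, n = 3 each). The same genes led in WT cord, Apex1 with 18.7 ± 0.70 FPKM and H2afx with 17.8 ± 1.37, which did not differ beyond their spread. Next came Parp1, which senses nicks, in WT MEF at 25.0 ± 1.3 FPKM, and Rnf168, the ubiquitin ligase that marks chromatin around breaks, in WT cord at 14.5 ± 0.90 (SD, n = 3 each). The coefficient of variation among WT libraries had a median over the 49 genes of 5.16% in MEF and 6.54% in cord.

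Among the damage signalling genes, 6 were higher and 3 lower in WT MEF. H2afx had 73.7, 70.9 and 70.5 FPKM in WT MEF and 19.2, 16.5 and 17.8 in WT cord (1.98 on the log2 scale, SE 0.06, limma adjusted p = 1.56e-08). Mdc1, the scaffold that reads the phosphorylated histone, had 13.9, 14.0 and 14.1 FPKM in WT MEF and 3.61, 3.49 and 3.06 in WT cord (1.90, SE 0.06). Chek1, the checkpoint kinase of stalled replication, had 3.06, 3.07 and 3.26 FPKM in WT MEF and 0.524, 0.540 and 0.457 in WT cord (1.85, SE 0.07). In all 3 genes every WT MEF library lay above every WT cord library. Chek2, the checkpoint kinase downstream of ATM, was 1.5 higher, and the apical kinases Atm and Atr were higher by 0.67 and 0.39. Trp53bp1, whose protein shields break ends from resection, was 1.14 lower in MEF, with 4.81 ± 0.14 FPKM in WT MEF and 11.2 ± 0.07 in WT cord (SD, n = 3 each; SE 0.04, adjusted p = 5.10e-08). The ubiquitin ligases Rnf8 and Rnf168 were 0.24 and 0.21 lower. The Rnf8 call rested on the scaling, since quantile normalization turned it to 0.60 higher.

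Of the 9 genes of end sensing and recombination, 6 were higher and 1 lower in WT MEF. Rad54l, a motor protein of strand exchange, had 2.38, 2.22 and 2.76 FPKM in WT MEF and 0.201, 0.0965 and 0.177 in WT cord (2.16, SE 0.11, adjusted p = 3.63e-07). Brca1, which promotes resection and recombination, had 3.06, 3.51 and 3.13 FPKM in WT MEF and 0.492, 0.554 and 0.496 in WT cord (1.88, SE 0.07). The genes of the end sensing complex differed less, with Rad50 1.26, Mre11a 0.91 and Nbn 0.44 higher. Brca2, the loader of the recombinase, was 1.20 higher. Xrcc3, a paralog of the recombinase, went against the group and was 1.56 lower in MEF, with 1.76 ± 0.23 FPKM in WT MEF and 6.14 ± 0.58 in WT cord (SD, n = 3 each; SE 0.09, adjusted p = 1.35e-06). Rad52 and Xrcc2 were not called, at -0.13 and -0.19.

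Of the 5 end joining genes 4 were called lower in WT MEF, or 1 with quantile normalization. Lig4, the ligase of the pathway, and its partner Xrcc4 were 0.46 and 0.45 lower, the kinase gene Prkdc 0.42 and Xrcc5, which encodes Ku80, 0.24. Xrcc6, which encodes Ku70, was 0.81 higher (SE 0.04, adjusted p = 4.09e-07). With quantile normalization Xrcc5 stayed lower, while Lig4 at -0.13, Xrcc4 at 0.05 and Prkdc near 0 were not called.

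Of the 14 genes of single-strand break and base excision repair, 11 were higher and 3 lower in WT MEF. Lig1, the ligase that joins Okazaki fragments, had 21.3, 21.2 and 22.7 FPKM in WT MEF and 4.44, 3.91 and 4.32 in WT cord (2.24, SE 0.06, adjusted p = 7.28e-09). Ung, the glycosylase that removes uracil, had 2.52, 2.32 and 2.49 FPKM in WT MEF and 0.414, 0.297 and 0.40 in WT cord (1.76, SE 0.08). Apex1 had 63.8, 55.2 and 55.2 FPKM in WT MEF and 19.5, 18.3 and 18.4 in WT cord (1.6, SE 0.06). The genes lower in MEF were Polb, the gap-filling polymerase, at -0.93, Aptx, which removes adenylate from failed ligations, at -0.77, and Neil1, a glycosylase for oxidised bases, at -0.19. The Neil1 call was lost with quantile normalization, which gave 0.16. Parp1, Lig3 and the scaffold Xrcc1, which work together at nicks, were 1.3, 1.1 and 1.0 higher in MEF.

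In nucleotide excision repair 6 genes were higher and 1 lower in WT MEF, with differences of at most 0.80. The helicase gene Ercc3 and the nuclease gene Ercc1 were 0.80 and 0.79 higher, while Ercc4, the nuclease partner of Ercc1, was not called, at -0.13. Ercc8, the transcription-coupled repair gene CSA, was 0.49 lower, a call lost with quantile normalization (0.14). Of the mismatch and Fanconi genes 3 of 4 were higher. Fanca, of the Fanconi core complex, had 3.83, 3.27 and 3.38 FPKM in WT MEF and 0.183, 0.0849 and 0.187 in WT cord (2.62, SE 0.10, adjusted p = 7.30e-08). Fancd2, which the core complex ubiquitinates, had 2.50, 2.57 and 2.26 FPKM in WT MEF and 0.0974, 0.128 and 0.103 in WT cord (2.27, SE 0.08). Both genes had 11 to 32 reads per cord library, so their cord levels carry a wide counting error, and the pseudocount of 0.5 shrinks their difference. Msh6, a mismatch sensor, was 1.13 higher.

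**Figure D2:**
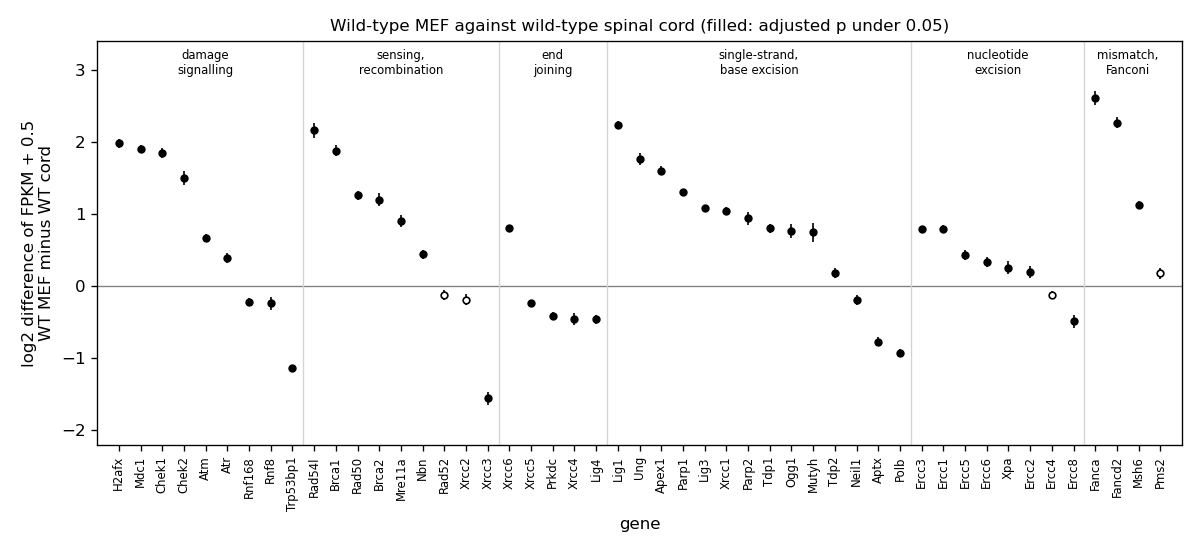
Difference in log2(FPKM + 0.5) between WT MEF and WT spinal cord for each of the 49 genes, grouped by role and ordered within it, with bars for limma's standard error and filled points for adjusted p under 0.05. Fanca at 2.62 and Fancd2 at 2.27 lie at the top, Xrcc3 at -1.56 and Trp53bp1 at -1.14 at the bottom, and 4 of the 5 end joining genes lie below 0, 3 of them not called with quantile normalization.

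Genes of the dividing cell moved with this difference. All 18 genes of a proliferation list were called higher in WT MEF, with a median of 4.49 on the log2 scale. Their summed level was 533 to 540 FPKM in WT MEF and 30.2 to 31.2 in WT cord. Their part in the difference of the repair genes was not tested. The promoters of the repair genes were also searched for letters known from genes of the cell cycle. RefSeq windows of GRCm38.p6, 250 bases before to 50 after the transcription start, were at hand for 40 of the 49 genes. Of the 17 genes called at least 1 higher on the log2 scale in WT MEF, 14 had a window. An E2F motif (TTTCCCGC, TTTGGCGC, TTTCGCGC or TTTGCCGC on either strand) stood in the first window of 4 of these 14 (28.6%). These 4 were Mdc1, Chek2, Msh6 and Brca2. The motif stood in 1 of the other 26 (3.85%), Xrcc6, and in 2.92% of 17491 protein-coding genes. Lig1, another of the 14, held E2F letters only in window 2 of its 3, which was not counted. CCAAT, on either strand, stood in 57.1% of the 14 genes, 57.7% of the other 26 and 39.0% of protein-coding genes. Another motif of cell cycle genes, TTTGAA on either strand, was in 0 of the 14, in 11.5% of the other 26 and in 16.5% of protein-coding genes. These shares rest on few genes, the 14 were picked by the tissue difference, and the shares were not tested. The windows below are those of the 3 genes that hold both E2F and CCAAT letters among the 14, shown because these are the letters counted. They run 5′ to 3′ on the gene's strand, which is the plus strand for all 3, and capitals mark the E2F and CCAAT letters.
Mdc1, chr17:35841248-35841547: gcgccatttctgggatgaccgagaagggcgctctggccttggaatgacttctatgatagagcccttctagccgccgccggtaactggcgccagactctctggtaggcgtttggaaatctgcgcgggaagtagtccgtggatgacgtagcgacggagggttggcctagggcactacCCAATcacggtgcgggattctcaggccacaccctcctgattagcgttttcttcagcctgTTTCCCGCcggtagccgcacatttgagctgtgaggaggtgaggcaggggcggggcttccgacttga
Chek2, chr5:110839733-110840032: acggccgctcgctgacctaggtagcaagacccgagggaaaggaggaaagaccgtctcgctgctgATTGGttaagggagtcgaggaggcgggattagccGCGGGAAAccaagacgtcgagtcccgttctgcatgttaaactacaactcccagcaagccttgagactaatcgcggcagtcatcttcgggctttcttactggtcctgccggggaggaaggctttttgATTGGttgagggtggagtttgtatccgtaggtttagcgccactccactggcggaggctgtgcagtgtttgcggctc
Msh6, chr17:87974800-87975099: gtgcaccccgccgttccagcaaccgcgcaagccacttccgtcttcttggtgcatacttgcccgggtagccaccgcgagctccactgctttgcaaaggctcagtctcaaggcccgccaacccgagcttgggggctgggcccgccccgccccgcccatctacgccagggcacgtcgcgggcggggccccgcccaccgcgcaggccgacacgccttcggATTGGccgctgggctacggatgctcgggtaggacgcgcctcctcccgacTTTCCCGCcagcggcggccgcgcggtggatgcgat

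Counted from the transcription start, the E2F letters began at -16 in Mdc1, at -152 in Chek2 and at 16 in Msh6. The CCAAT letters began at -75 in Mdc1, at -186 and -26 in Chek2 and at -34 in Msh6. A match of letters is not a site of binding, and windows without them say nothing of a factor.

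In the spinal cord, the comparison of S87L with WT concerns the tissue with the cell bodies of motor neurons. None of the genes tested was called higher. The 4 called lower were Lig3, Neil1 and Apex1 of base excision and single-strand break repair, and Trp53bp1 of damage signalling. They fell by 0.18 to 0.41 on the log2 scale. By limma 0 of the 44 genes tested were called higher and 4 lower (9.09%), and at an unadjusted p under 0.05 there were 0 higher and 9 lower. Over all 15648 genes tested 5.17% were called higher, 7.71% lower and 12.9% in either direction. The share called lower is thus near that of all genes. At the unadjusted threshold 1775 of the 15648 genes were higher and 2771 lower. The difference was below 0 at 32 of the 44 (72.7%), against 55.3% of all genes tested. Its median was -0.10, against -0.02 for all genes. At 13 genes every S87L library lay below every WT library and at 0 above, against 21.3% and 13.8% of all genes tested. Brca2, Rad54l, Ung, Fanca and Fancd2 were under the filter on low values in cord and were not tested.

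Lig3 (chromosome 11, 82781108 to 82804274, GRCm38) encodes the ligase that seals single-strand breaks together with XRCC1. It had 3.28, 3.28 and 3.5 FPKM in S87L cord and 4.28, 4.46 and 4.18 in WT cord, from 446 to 564 reads per library. All S87L libraries lay below all WT libraries, and Lig3 fell by 0.32 on the log2 scale (SE 0.05, adjusted p = 0.00997). Its scaffold Xrcc1 had 3.26 ± 0.30 FPKM in S87L cord and 3.24 ± 0.19 in WT cord (SD, n = 3 each; 0.01, adjusted p = 0.967). The ratio of Lig3 to Xrcc1 within a library was 0.911 to 1.15 in S87L cord and 1.24 to 1.39 in WT cord. In MEF the ratio went the other way, at 1.54 and 1.45 in S87L MEF and 1.30 to 1.37 in WT MEF. There limma called neither Lig3 (0.05, adjusted p = 0.630) nor Xrcc1 (-0.09, adjusted p = 0.325).

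Neil1 (chromosome 9, 57142800 to 57148305) had 2.39, 2.45 and 2.18 FPKM in S87L cord and 3.48, 3.07 and 3.25 in WT cord, from 76 to 118 reads. The groups stood apart, and Neil1 fell by 0.41 (SE 0.07, adjusted p = 0.0104). The Lig3 and Neil1 calls held under all 16 alternatives. Apex1 (chromosome 14, 50924968 to 50927139) had 15.8, 16.0 and 16.1 FPKM in S87L cord and 19.5, 18.3 and 18.4 in WT cord. The S87L libraries were close to each other and below all WT libraries, and Apex1 fell by 0.22 (SE 0.04, adjusted p = 0.0140). Without S87L replicate 1 or 2 its adjusted p was 0.0574 and 0.0611.

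Trp53bp1 (chromosome 2, 121193281 to 121271407) had 9.55, 9.999 and 9.93 FPKM in S87L cord and 11.2, 11.3 and 11.2 in WT cord. It fell by 0.18 (SE 0.04, adjusted p = 0.0239), with no overlap of the groups. This call was lost without any 1 library other than WT replicate 1, with an adjusted p of up to 0.0862. The sources used here do not say whether reads were counted by strand, and some of these genes share exon bases with a neighbour on the other strand. Apex1 shares 61.7% of its exon bases with Pip4p1, Lig3 25.1% with Rffl and Trp53bp1 15% with Tubgcp4. None of the 3 neighbours was called in cord (Pip4p1 -0.04, Rffl -0.05 and Tubgcp4 0.11).

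**Figure D3:**
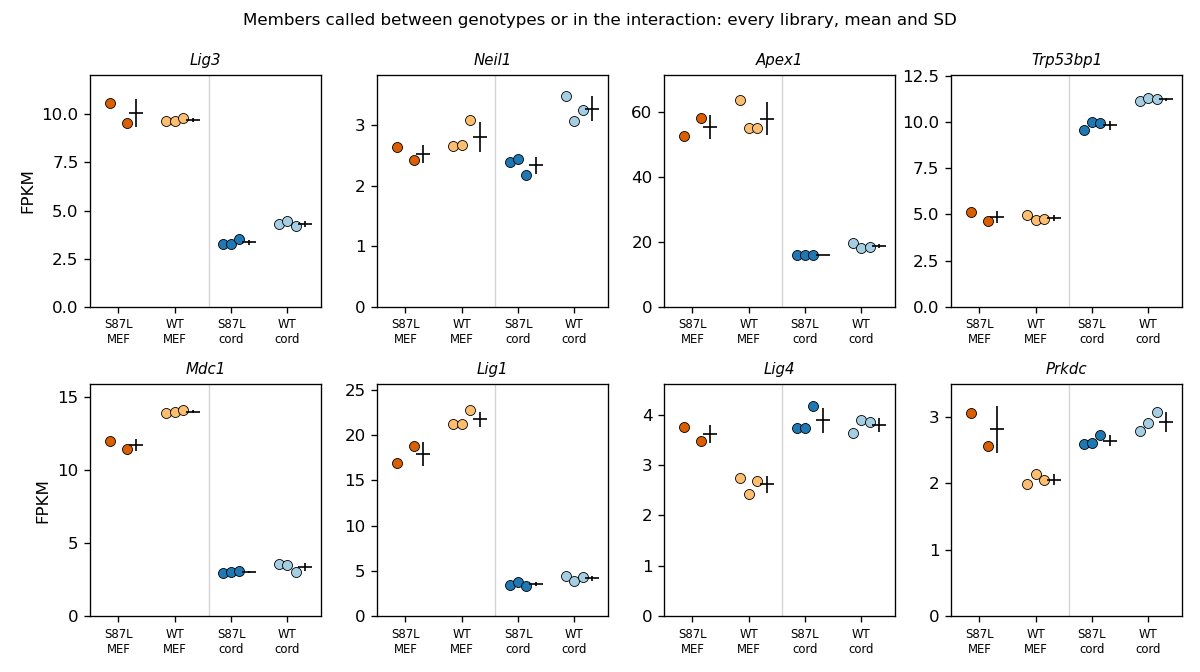
FPKM of the 8 genes called between genotypes or in the interaction, 1 panel a gene with the axis at 0, as points for the single libraries beside the mean and SD of each group in the order S87L MEF, WT MEF, S87L cord and WT cord. For Lig3, Neil1, Apex1 and Trp53bp1 the S87L cord points lie below the WT cord points, while for Lig4 and Prkdc the S87L MEF points lie above the WT MEF points.

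In the other roles the gene with the smallest p in cord was lower in S87L and not called. For recombination it was Xrcc3, with 5.40, 5.23 and 3.89 FPKM in S87L cord and 6.75, 6.10 and 5.59 in WT cord (-0.32, SE 0.12, adjusted p = 0.125). For end joining it was Xrcc6, with 3.76, 4.13 and 4.45 FPKM in S87L cord and 4.64, 4.58 and 4.53 in WT cord (-0.14, SE 0.06, adjusted p = 0.187). In both genes the groups did not overlap, but the range of the S87L libraries was as wide as the gap between the group means. For nucleotide excision it was Ercc6, the transcription-coupled repair gene CSB, with 1.64, 1.48 and 1.68 FPKM in S87L cord and 1.78, 2.05 and 1.90 in WT cord (-0.20, SE 0.07, adjusted p = 0.126). For mismatch repair it was Pms2, which carries the nuclease of mismatch repair, with 1.12, 1.24 and 1.27 FPKM in S87L cord and 1.36, 1.42 and 1.63 in WT cord (-0.20, SE 0.09, adjusted p = 0.169). The largest positive difference was that of Nbn at 0.17 (SE 0.08, adjusted p = 0.204), with 9.61 ± 0.83 FPKM in S87L cord and 8.49 ± 0.69 in WT cord (SD, n = 3 each).

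Marker transcripts of several cell types moved with genotype in cord. Summed over 5 markers each, skeletal muscle transcripts were 48.0 to 50.9 FPKM in S87L cord and 9.82 to 12.7 in WT cord, with 5 of 5 called higher, and fibroblast and meningeal transcripts were 25.6 to 26.8 FPKM in S87L cord and 12.4 to 13.6 in WT cord, with 5 of 5 called higher. Schwann cell markers were 368 to 383 FPKM in S87L cord and 315 to 334 in WT cord, with 4 of 4 tested called higher. Microglial markers were 136 to 143 FPKM in S87L cord and 113 to 123 in WT cord. Of these 5 markers, 3 were called higher and 1 was lower at an unadjusted p under 0.05. Red blood cell markers were 409 to 447 FPKM in S87L cord and 336 to 371 in WT cord (3 of 5 higher). Neuronal markers were 1270 to 1296 FPKM in S87L cord and 1314 to 1332 in WT cord (2 of 5 lower), and oligodendrocyte markers 2692 to 2834 FPKM in S87L cord and 2954 to 3028 in WT cord (0 of 5 called by limma, 3 at an unadjusted p under 0.05). Astrocyte markers overlapped, at 1023 to 1044 FPKM in S87L cord and 1033 to 1091 in WT cord (1 of 5 higher and 1 lower). No marker of these lists was at 0 in every cord library. The part of these marker levels in the falls of Lig3, Neil1, Apex1 and Trp53bp1 was not tested.

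The comparison in MEF asks the same of fibroblasts, cells outside the nervous system. Lig4 rose and Mdc1 and Lig1 fell in S87L. By limma 1 of the 48 genes tested was called higher and 2 lower, and at an unadjusted p under 0.05 there were 4 higher and 7 lower. Over all 13773 genes tested 4.91% were called higher, 6.32% lower and 11.2% in either direction. At the unadjusted threshold 1760 of the 13773 genes were higher and 2089 lower. The median difference was 0.01 for the 48 genes and -0.01 for all genes. Every S87L library lay above every WT library at 10 genes (20.8% of the 48) and below at 13 (27.1%), against 20.8% and 25% of all genes tested. Rnf8 was under the filter in MEF. With only 2 S87L libraries these calls were unstable: without any 1 of the 3 WT libraries limma called 0, with 7 or 8 genes at an unadjusted p under 0.05.

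Lig4 (chromosome 8, 9969049 to 9977686) had 3.75 and 3.48 FPKM in S87L MEF and 2.74, 2.43 and 2.69 in WT MEF, from 172 to 269 reads. Both S87L libraries lay above all WT libraries, and Lig4 rose by 0.40 (SE 0.08, adjusted p = 0.0253). The range of its adjusted p over 15 alternatives reached 0.114, with the replicate number as a block. Xrcc4, which holds LIG4 at the break, had 1.38 ± 0.09 FPKM in S87L MEF (SD, n = 2) and 1.48 ± 0.10 in WT MEF (SD, n = 3; -0.07, adjusted p = 0.678). The ratio of Lig4 to Xrcc4 was 2.59 and 2.63 in S87L MEF and 1.75 to 1.79 in WT MEF.

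Prkdc (chromosome 16, 15637866 to 15842235), the catalytic subunit of the DNA-dependent kinase that acts before LIG4, had 3.06 and 2.56 FPKM in S87L MEF and 1.98, 2.14 and 2.05 in WT MEF. Its difference was 0.37 (SE 0.09, adjusted p = 0.0509), just outside the threshold, and its adjusted p was 0.00706 to 0.217 over 15 alternatives. Among the kinases of damage signalling Atm had 6.81 and 5.44 FPKM in S87L MEF and 4.76, 5.14 and 4.76 in WT MEF (0.29, SE 0.10, adjusted p = 0.105).

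Mdc1 (chromosome 17, 35841515 to 35859670) had 12.02 and 11.4 FPKM in S87L MEF and 13.9, 14.0 and 14.1 in WT MEF. The WT values were tight, both S87L libraries lay below them, and Mdc1 fell by 0.25 (SE 0.05, adjusted p = 0.0216, up to 0.169 over 15 alternatives). Lig1 (chromosome 7, 13277283 to 13311433) had 16.9 and 18.8 FPKM in S87L MEF and 21.3, 21.2 and 22.7 in WT MEF. It fell by 0.28 (SE 0.06, adjusted p = 0.0349, up to 0.177 over 15 alternatives), with the larger fall in replicate 1. Lig1 was also lower in S87L cord, with 3.48, 3.80 and 3.38 FPKM in S87L cord and 4.44, 3.91 and 4.32 in WT cord (-0.22, SE 0.07, adjusted p = 0.0695), where the groups did not overlap and the call was missed.

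Near the threshold in the signalling group stood Rnf168 at -0.17 (adjusted p = 0.0520) and H2afx at -0.13 (adjusted p = 0.0997), both with S87L libraries below all WT libraries. For recombination the smallest p was that of Rad54l, with 2.04 and 1.84 FPKM in S87L MEF and 2.38, 2.22 and 2.76 in WT MEF (-0.27, SE 0.10, adjusted p = 0.147). For nucleotide excision it was Ercc1, with 9.90 and 11.3 FPKM in S87L MEF and 10.002, 8.87 and 8.88 in WT MEF (0.19, SE 0.08, adjusted p = 0.187). The Ercc1 groups overlapped, while those of Rad54l did not. For the mismatch and Fanconi genes it was Fancd2, with 2.21 and 2.10 FPKM in S87L MEF and 2.50, 2.57 and 2.26 in WT MEF (-0.15, SE 0.08, adjusted p = 0.290).

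**Figure D4:**
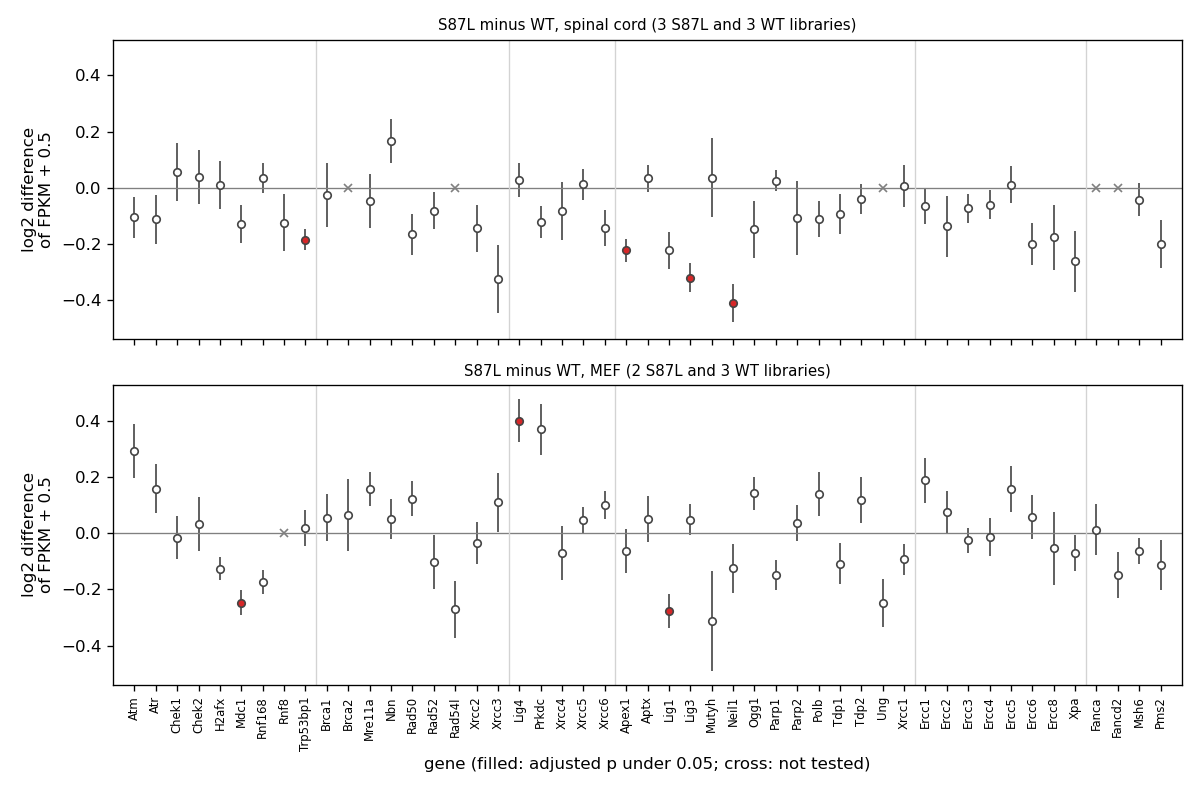
Difference in log2(FPKM + 0.5) between S87L and WT for each of the 49 genes in spinal cord (top) and MEF (bottom), grouped by role, with bars for limma's standard error, filled points for adjusted p under 0.05 and crosses for genes not tested. In cord 32 of 44 points (72.7%) lie below 0, against 55.3% of all genes tested, and the 4 filled ones are Trp53bp1, Apex1, Lig3 and Neil1. In MEF the points spread to both sides and the filled ones are Mdc1, Lig4 and Lig1.

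Fibroblast markers summed to 3133 and 3412 FPKM in S87L MEF and 3657 to 3673 in WT MEF, with 3 of 5 called lower. Markers of microglia, some of them shared with macrophages, summed to 90.4 and 95.8 FPKM in S87L MEF and 113 to 115 in WT MEF, with 2 of 5 called lower. Schwann cell markers summed to 59.2 and 57.5 FPKM in S87L MEF and 73.0 to 78.4 in WT MEF, with 2 of 3 tested called lower. Astrocyte markers summed to 3.77 and 3.96 FPKM in S87L MEF and 5.30 to 6.18 in WT MEF, with 1 of 2 tested called lower. Skeletal muscle markers summed to 9.59 and 10.02 FPKM in S87L MEF and 7.23 to 7.91 in WT MEF, with 1 of 2 tested called higher and 1 lower. The 18 proliferation genes summed to 519 and 513 FPKM in S87L MEF and 533 to 540 in WT MEF, with 1 called higher, Bub1, and 1 lower, Aurkb. The part of these levels in the calls of Lig4, Lig1 and Mdc1 was not tested. In cord 7 of the 18 were tested, 0 were called by limma and 1 had an unadjusted p under 0.05.

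Whether the S87L difference itself differed between MEF and cord was tested as the interaction in a fit of all 11 libraries. Prkdc, Lig4 and Lig3 differed, all with the S87L effect higher in MEF than in cord. By limma 3 of the 49 genes tested were called with a positive term and 0 with a negative one, and at an unadjusted p under 0.05 there were 13 positive and 2 negative. Over all 15811 genes 6.14% were called positive and 13.1% in either direction. The 6.12% of the 49 genes is thus near the positive share of all genes. At the unadjusted threshold 2353 of the 15811 genes were positive and 2227 negative. The Prkdc term was 0.49 (SE 0.10, adjusted p = 0.00839), from 0.37 in MEF and -0.12 in cord, where S87L libraries had 2.59, 2.60 and 2.73 FPKM and WT libraries 2.78, 2.91 and 3.07. The Lig3 term was 0.37 (SE 0.07, adjusted p = 0.00852), from 0.05 in MEF, where Lig3 had 10.6 and 9.54 FPKM in S87L MEF and 9.66, 9.63 and 9.79 in WT MEF, and -0.32 in cord. The Lig4 term was 0.37 (SE 0.09, adjusted p = 0.0235), from 0.40 in MEF and 0.03 in cord, where S87L libraries had 3.74, 3.74 and 4.17 FPKM and WT libraries 3.64, 3.90 and 3.85. The Prkdc and Lig3 calls were lost with the replicate number as a block (adjusted p = 0.0599 and 0.0571) and held under the other 19 alternatives, and the Lig4 call was lost under 8 of 20. Of the 43 genes tested in both tissues, 17 were lower in S87L cord and higher in S87L MEF, and 14 were lower in both. A further 6 were higher in both, and 6 were higher in cord and lower in MEF. These counts take the sign of each difference, called or not. Most of the differences were not called, and some lay near 0, such as Ercc4 in MEF (-0.01) and Xrcc5 in cord (0.01). The same counts were not made over all genes, so they do not show an opposite response of the repair genes.

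Partner genes were also set against each other within a library. Xrcc5 over Xrcc6, the 2 subunits of the Ku ring, was 1.33 ± 0.04 in WT MEF and 2.90 ± 0.10 in WT cord (SD, n = 3 each). Lig1 over Lig3 was 1.604 and 1.97 in S87L MEF and 2.2 to 2.32 in WT MEF, and 0.964 to 1.16 in S87L cord and 0.876 to 1.04 in WT cord. Trp53bp1 over Brca1, whose proteins oppose each other in the choice between end joining and recombination, was 1.49 ± 0.14 in WT MEF and 21.9 ± 1.32 in WT cord (SD, n = 3 each), where Brca1 stood at 0.514 ± 0.035 FPKM. These ratios are descriptions of RNA levels per annotated exon length, 2555 bases for Xrcc5 and 4476 for Xrcc6, and were not tested.

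**Figure D5:**
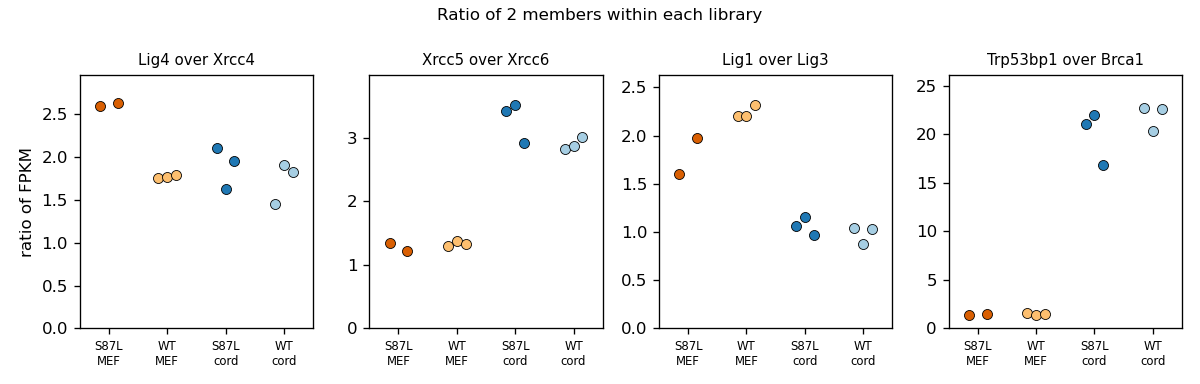
Ratio of FPKM of 2 genes within each library, for Lig4 over Xrcc4, Xrcc5 over Xrcc6, Lig1 over Lig3 and Trp53bp1 over Brca1, with groups in the order S87L MEF, WT MEF, S87L cord and WT cord and every axis at 0. Lig4 over Xrcc4 is 2.59 and 2.63 in S87L MEF, above the 1.75 to 1.79 of WT MEF, and in the other 3 panels MEF and cord libraries do not overlap.

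A wider list of 97 other repair genes ran between checkpoint clamps and translesion polymerases. In cord 81 were tested and limma called 0 higher and 4 lower, with 1 higher and 12 lower at an unadjusted p under 0.05. The share called was 4.94%, against 12.9% of all genes. At the unadjusted threshold 1775 of all 15648 genes were higher and 2771 lower in cord. Tipin, of the fork protection complex, fell by 0.35, with 4.95, 4.57 and 5.39 FPKM in S87L cord and 6.88, 5.97 and 6.58 in WT cord (SE 0.07, adjusted p = 0.0237). The demethylase Alkbh2 fell by 0.52 (SE 0.11, adjusted p = 0.0276), with 1.75 ± 0.29 FPKM in S87L cord and 2.73 ± 0.31 in WT cord, and Uvssa, of transcription-coupled repair, fell by 0.30 (SE 0.07, adjusted p = 0.0333), with 1.05 ± 0.02 FPKM in S87L cord and 1.40 ± 0.02 in WT cord (SD, n = 3 each). The nuclease gene Fan1, named after its value was seen, fell by 0.23. In MEF 96 were tested and 2 were called higher and 1 lower, 3.12% against 11.2% of all genes. Polk, a translesion polymerase, rose by 0.53, with 7.23 and 5.77 FPKM in S87L MEF and 4.36, 4.20 and 4.39 in WT MEF (SE 0.09, adjusted p = 0.0194), and Gtf2h1, of the repair factor TFIIH, rose by 0.19 (SE 0.04, adjusted p = 0.0346). Rpa2, of the protein that coats single-stranded DNA, fell by 0.31, with 9.35 and 10.1 FPKM in S87L MEF and 12.8, 11.9 and 11.9 in WT MEF (SE 0.06, adjusted p = 0.0211). In WT MEF against WT cord 64 of 95 were called higher and 19 lower, 87.4% against 87.6% of all genes, and in the interaction 1 of 94, Gtf2h2, was called (1.06% against 13.1%).

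Of a list of p53 targets, some of them already known to rise in these data and so no independent evidence, 6 of 13 tested were called higher and 0 lower in cord, against 5.17% and 7.71% of all genes. In MEF 6 of 14 were called higher and 0 lower, against 4.91% and 6.32% of all genes, and 1 was lower at an unadjusted p under 0.05. Of the 3 with the highest level in cord, the cell cycle inhibitor Cdkn1a rose by 0.95 and the cyclin Ccng1 by 0.52, while Phlda3 was not called, at 0.07. In MEF Ccng1 rose by 0.62 and Cdkn1a by 0.26, and Phlda3 was not called, at 0.05. Atm and Chek2, whose kinases act on p53, were at -0.11 and 0.04 in cord and at 0.29 and 0.03 in MEF and were not called in either tissue.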

How the data were processed

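Total RNA was taken with TRIzol and made into libraries with a strand-marking kit, per the labels' protocols. The authors deposited FPKM values for 55487 Ensembl identifiers in 11 libraries. HTSeq 0.11.3, HISAT2 2.2.1, Trimmomatic 0.39 and Picard 2.25.5 are listed, with GRCm38, per the submitters' processing notes. The sources used here give no role for them, no annotation release and no strand setting for counting, so overlapping genes may share reads, and 23 of the 49 genes overlap another on their exons. Symbols and GRCm38 coordinates are from GENCODE. Dividing FPKM by its step gave whole reads, within 0.05, for 98.5% to 98.6% of values. Library pairs of a group differed beyond counting noise (chi-square per degree of freedom 1.26 to 4.67), and each counted as 1 replicate. FPKM is no count, so limma 3.58.1 in R 4.3.3 was fitted to log2(FPKM + 0.5), with trend and robust settings, which understates the change of low genes. Each tissue was fitted alone, and the code was tested on simulated data. Full values are given for every gene called by genotype or interaction, the smallest p per role and tissue, and the 10 largest tissue differences. The members and lists were chosen with earlier results of these data known. Alternatives were pseudocounts of 0.1 and 1, filters of 0 and 1 FPKM, quantile and median ratio scaling, plain eBayes, library weights, the replicate number as a block, a joint fit and leaving out each library.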

Additional observations from a re-analysis of the deposited data

Results flagged for a closer look

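The S87L effect differed between MEF and spinal cord for 3 of the 49 genes, tested as the interaction term of limma over all 11 libraries. This is 6.12% of the 49, near the 6.14% of all genes called with a positive term and below the 13.1% called in either direction. The difference of the effects, MEF minus cord, was 0.49 for Prkdc, 0.37 for Lig4 and 0.37 for Lig3. For Prkdc the genotype difference was called in neither tissue alone, at 0.37 in MEF (adjusted p = 0.0509) and -0.12 in cord (adjusted p = 0.212). For Lig4 it was called in MEF and for Lig3 in cord. The S87L MEF libraries lay above all WT MEF libraries for Prkdc, Lig4 and Xrcc6, 3 of the 5 end joining genes. For Xrcc4 (-0.07) and Xrcc5 (0.05) of the same pathway they did not. Of all genes tested in MEF, 20.8% had the S87L libraries above all WT libraries. The summed marker levels of other cell types also moved with genotype in cord, and their part in these differences was not tested.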

How the results depend on the processing

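Among the calls by genotype or interaction, and the 10 largest tissue differences, no sign reversed in the comparison called under any alternative run. Uncalled differences of the same genes could change sign, such as that of Lig3 in MEF, at -0.02 to 0.12. Among the smaller tissue differences that were called, quantile normalization moved Rnf8 to 0.60, Neil1 to 0.16, Ercc8 to 0.14 and Xrcc4 to 0.05, all below 0 without it, and only Rnf8 was then called. In cord the count of genes called was 4, and 2 to 4 when 1 library was left out (2 without S87L replicate 1 or 2). In MEF the count of 3 became 0 with no filter on low values (11 at an unadjusted p under 0.05), 5 with a filter of 1 FPKM, 6 in the fit of all 11 libraries, and 0 to 5 when 1 library was left out: 0 without any 1 WT library (7 or 8 at an unadjusted p under 0.05), 1 without S87L replicate 1 and 5 without S87L replicate 2. For WT MEF against WT cord the count of 45 stayed at 40 to 44 when 1 library was left out. For the interaction the count of 3 was 2 to 5 (5 without S87L cord replicate 3 or S87L MEF replicate 2).

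With the replicate block the count was 5 in cord, 0 in MEF (5 at an unadjusted p under 0.05), 44 for WT MEF against WT cord, and 1 for the interaction, a gene other than the 3. Between same-numbered libraries the deviations from the group mean correlated at 0.15, -0.05 and 0.11 in cord and at -0.07 and -0.03 in MEF. With so few libraries, deviations within a group are tied to each other. These values therefore cannot decide whether the numbers pair the samples.

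Over all genes the calls ran between 838 and 3098 in cord and between 182 and 2308 in MEF. In cord, 5 genes lie below the filter, and Neil1 rests on 76 to 118 reads per library. Differences of low genes are understated by the pseudocount.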
